A study of Mus musculus with 18 samples.

Results

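Double positive (DP) thymocytes and naive CD4 T cells, the start and the end of a mouse T-cell series, were compared cytosine by cytosine. The members are 64 CpG cytosines with at least 10 reads in every one of 12 libraries, out of 104 CpG cytosines on mouse chromosomes that appear in any of these files. They form 37 CpGs, 27 of them read on both strands, in 4 loci within genes that the study chose for their part in T cells and for a changing 5-hydroxymethylcytosine (5hmC) signal in an antibody assay. The question was whether a cytosine that carried more 5hmC in DP cells lost more of its modification by the naive stage, between loci and within them.

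The DP cells were sorted from the thymus as CD4+ cells with intermediate to high CD8. The naive CD4 T cells were sorted from pooled spleen and lymph nodes as CD4+, CD62L high, CD25-, CD44 low cells. Both came from untreated C57/BL6 mice, which were female and 4 to 6 weeks old, with 3 isolations from independent mice per stage. The DNA of each isolation was divided, and 1 portion was oxidized before bisulfite treatment, which gave 3 BS and 3 oxBS libraries per stage and 12 of the 18 libraries of the series. No expression was measured, so the sorted populations were not checked against marker genes.

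BS-seq turns unmodified cytosine into T in the reads and leaves 5-methylcytosine (5mC) and 5hmC as C. The oxidation step of oxBS-seq makes 5hmC convert as well, so that C in the reads stands for 5mC alone. The unconverted share of a cytosine (reads with C over all reads) is thus 5mC plus 5hmC in BS and 5mC in oxBS, and BS minus oxBS of the same DNA is an estimate of 5hmC, in percentage points. TET enzymes oxidize 5mC to 5hmC and beyond, which is one route to demethylation, and 5hmC can also be diluted by cell division. Thymocytes carry 5hmC at regulatory regions of lineage genes.

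Of the loci, 3 lie in introns and 1 in an exon (NCBIM37, the same build as mm9). Prkcq, the gene of protein kinase C theta, which acts in T-cell receptor signaling, was covered in an intron at chr2:11124412-11124609 with 17 CpG cytosines. Zbtb7b, the gene of the CD4 lineage factor ThPOK, was covered in a coding exon at chr3:89184744-89185022 with 28. Il6ra, the gene of the interleukin 6 receptor alpha chain, was covered in an intron at chr3:89679038-89679232 with 12. Pax5, the gene of a B-cell lineage factor, was covered in an intron at chr4:44628612-44628931 with 7, all on the forward strand. After bisulfite treatment the strands of a locus are no longer complementary and are amplified apart, so these are 7 separately amplified strands.

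The sequences that the results turn on are given for the cytosines at the extremes of each locus, ranked among those with at least 100 reads in each of the 12 libraries. That left the 9 forward cytosines of Prkcq, all 28 of Zbtb7b and the 7 reverse cytosines of Il6ra, and at Pax5 all 7 were ranked. Each is 26 bases of NCBIM37, written 5′ to 3′ on the strand of the measured cytosine, with its CpG in capitals. Cytosines are named by gene and position, and forward is the plus strand of the chromosome. In Prkcq, among the forward cytosines, they are the one with the largest oxBS fall (chr2:11124486-11124511, forward), the one with the largest BS fall (chr2:11124534-11124559, forward), and those with the highest and the lowest DP BS minus oxBS (chr2:11124547-11124572 and chr2:11124511-11124536, forward).
Prkcq 11124498: aagcaccaggctCGtagccatgcacc
Prkcq 11124546: cggccactgccaCGgccaccgccacc
Prkcq 11124559: ggccaccgccacCGggctatgaaatg
Prkcq 11124523: caccaccgccacCGccaccgccacgg
In Zbtb7b they follow in the same order (chr3:89184764-89184789 forward, chr3:89184941-89184966 reverse, chr3:89184812-89184837 forward, chr3:89184809-89184834 reverse).
Zbtb7b 89184776: agatggtttgctCGggcccctttggt
Zbtb7b 89184954: tgtgagcgagccCGacagtacctgga
Zbtb7b 89184824: ttgcggctgcgaCGggcaacaggtcg
Zbtb7b 89184822: cctgttgcccgtCGcagccgcaaacc
In Il6ra, among the reverse cytosines, 1 had both the largest oxBS fall and the highest difference (chr3:89679174-89679199, reverse). It is followed by the one with the largest BS fall (chr3:89679143-89679168, reverse), the one with the lowest difference (chr3:89679059-89679084, reverse) and the CpG of an E-box, CACGTG (chr3:89679161-89679186, forward).
Il6ra 89679187: gctgagccacagCGactgggttgcac
Il6ra 89679156: ggaggcgtttgaCGttttgccagtca
Il6ra 89679072: tttctctagcaaCGttagagaaaatg
Il6ra 89679173: acgcctcccacaCGtgcaacccagtc
In Pax5 they are the cytosine with the largest oxBS fall and lowest difference (chr4:44628820-44628845), the one with the largest BS fall (chr4:44628631-44628656) and the one with the highest difference (chr4:44628672-44628697), all forward.
Pax5 44628832: tctgggagctttCGctgtatgatctc
Pax5 44628643: cctgggaagcccCGtcggagacagga
Pax5 44628684: tgaagggccagaCGcctgctcacctc
The letters CACGTG, which read the same on both strands, centre on 2 of the 64 cytosines (3.12%), the 2 strands of that 1 CpG.

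Over all cytosines of a library the conversion controls were alike. The unmodified lambda control read 0.0392% to 0.0625%, the 5mC control 99.3% to 99.5% and the non-CpG cytosines of the loci 0.20% to 0.22%. Read depth summed over covered mouse and lambda cytosines ran from 3450894 to 8525370 per library, so that a read counts once for each cytosine it covers. The 5hmC control read 5.51% to 6.54% in BS and 0.647% to 1.30% in oxBS libraries, and no oxidation efficiency was taken from it. DP BS libraries 2 and 3 agreed more closely over the 64 shares than any other pair of replicates. Their chi-square per degree of freedom was 1.19, against 1.48 to 44.5. The p of that chi-square test, 0.139, takes the cytosines as independent, though those of a strand share reads. Their reads over the 7 strands differed (chi-square per degree of freedom of 104). These 2 libraries were kept as separate samples, as labelled, and the BS change is also given with both counted as 1 sample.

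Reads per cytosine set the precision. The forward strands of Prkcq and Il6ra had 6128 to 126198 reads, with 1 exception. Naive BS library 1 had only 72 or 73 reads on the forward strand of Il6ra. The reverse strand of Prkcq was shallow in DP cells, with 26 to 77 reads in BS and 51 to 427 in oxBS. Pax5 had 44 to 1535 reads. Reads carry no molecular identifiers, so 95% Wilson intervals cover counting error only.

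Both shares fell at nearly every cytosine outside Pax5. The BS share was lower in naive CD4 than in DP cells at 57 of 64 cytosines (limma on log2 odds, adjusted p under 0.05, a background of 89.1% of those tested), which are all 17 of Prkcq, all 28 of Zbtb7b and all 12 of Il6ra. The oxBS share was lower at 55 (85.9%), 17 in Prkcq, 25 in Zbtb7b, 11 in Il6ra and 2 in Pax5, and it was higher at 4, 1 in Zbtb7b and 3 in Pax5. Every naive library lay below every DP library at 57 cytosines in BS and at 55 in oxBS. The study's own kind of call, a Bayes factor above 1 from a hierarchical model of C, 5mC and 5hmC over both assays, was reached at 25 of 64 (39.1%), at 12 in Prkcq, 12 in Il6ra, 1 in Zbtb7b and 0 in Pax5. At each of these 25 both shares fell. The proportions of that model cannot be below 0, so it cannot place oxBS above BS beyond small differences of the controls. All naive oxBS libraries lay above all naive BS libraries at 9 cytosines of Prkcq and 7 of Il6ra. What this does to the Bayes factors was not tested.

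The loci differed in BS minus oxBS of DP cells. BS minus oxBS in DP cells was 24.5 ± 3.27 points at Prkcq, 20.6 ± 2.60 at Il6ra, 5.45 ± 0.862 at Zbtb7b and -2.79 ± 1.97 at Pax5 (SD, n = 3 pairs). The pairs of Prkcq (21.3, 27.9 and 24.2) and Il6ra (21.9, 22.2 and 17.6) overlapped, so the order of these neighbours is not set, and Zbtb7b (4.55 to 6.27) and Pax5 (-4.83 to -0.886) lay below both. All DP BS libraries lay above all DP oxBS libraries at 52 of 64 cytosines (81.2%), of which 17 were in Prkcq, 24 in Zbtb7b, 11 in Il6ra and 0 in Pax5. At Pax5 the difference was below 0 at 5 of 7 cytosines, which a share of 5hmC cannot be.

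The oxBS fall was 47.1 points at Il6ra, 22.9 at Prkcq, 9.51 at Zbtb7b and 0.0497 at Pax5. All 3 naive libraries lay below all 3 DP libraries at the first 3 loci and not at Pax5. The exact permutation test of 3 against 3 libraries cannot go below p = 0.10, which it gave at Il6ra, Prkcq and Zbtb7b (0.12 after Benjamini-Hochberg adjustment over the 12 locus tests), and it gave p = 0.90 at Pax5. The BS fall ran in the order of the oxBS fall, with 82.0 points at Il6ra, 54.4 at Prkcq and 12.7 at Zbtb7b (exact permutation p = 0.10 each). The BS share of Pax5 was 2.74 points higher in naive CD4 (exact permutation p = 0.10). Prkcq and Il6ra, whose DP differences overlapped, thus had oxBS falls that lay far apart, and with 4 loci no relation between loci was tested. That overlap depends on the shallow reverse strand of Prkcq, whose DP difference was 41.2 points. On the forward strand of Prkcq it was 9.60 points, below the forward (29.0) and reverse (14.5) strands of Il6ra, the order of the oxBS falls.

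**Figure D1:**
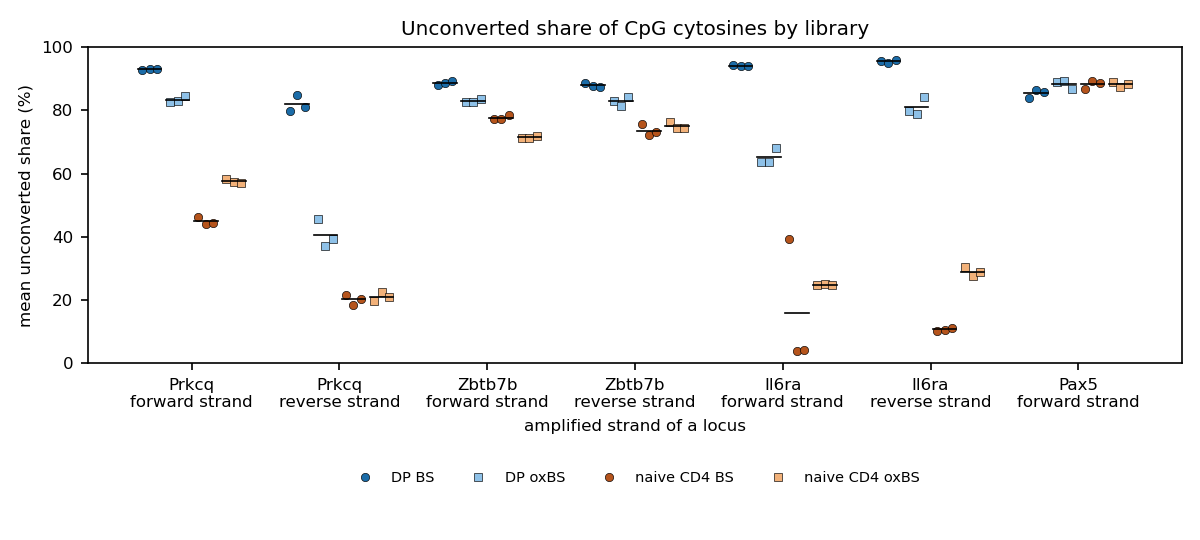
Mean unconverted share (%) of the CpG cytosines of each amplified strand, for 3 libraries of each stage and assay (points, with a black line at their mean). Naive libraries lie below DP libraries in both assays on 6 of the 7 strands, and the naive BS library 1 stands apart at 39.4% on the forward strand of Il6ra.

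Split by strand, the highest DP difference was not on the strand with the largest fall. The reverse strand of Prkcq led with 41.2 ± 6.84 points, ahead of Il6ra forward (29.0 ± 2.71), Il6ra reverse (14.5 ± 2.53), Prkcq forward (9.60 ± 0.863), Zbtb7b forward (5.83 ± 0.449) and Zbtb7b reverse (5.07 ± 1.65). The oxBS falls of the same strands were 19.6, 40.4, 51.9, 25.8, 11.3 and 7.70 points. On the reverse strand of Prkcq the DP oxBS libraries already read 45.6%, 36.9% and 39.4%, the lowest DP oxBS share of the 7 strands. As a share of the DP value the oxBS fall was 48.2% there, against 30.9% on the forward strand of Prkcq, 62.0% and 64.2% on the forward and reverse strands of Il6ra, and 13.7% and 9.30% on those of Zbtb7b.

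The fall of the BS share is by arithmetic the fall of the oxBS share, plus the DP difference, minus the naive difference. Over the 64 cytosines these means were 35.1, 19.1, 12.4 and -3.58 points. The DP difference amounted to 35.4% of the BS fall over all cytosines, to 66.8% on the reverse strand of Prkcq and to 17.2% on the reverse strand of Il6ra. A relation of the DP difference with the BS fall is therefore in part built in, and one with the oxBS fall is built in with the opposite sign among cytosines of like DP BS share. The naive oxBS share holds no DP value. To keep noise of a DP library off both axes, the DP difference was taken from 1 pair and the fall from the other 2 DP libraries and all naive libraries, and r was averaged over the 3 pairs.

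Across all 64 cytosines a higher DP difference went with a larger later fall. Pearson's r was 0.430 with the oxBS fall (0.332 to 0.523 over the 9 combinations of a DP pair with a naive library) and 0.723 with the BS fall (0.651 to 0.808). With the naive oxBS share, which shares no library with the DP difference, r was -0.803 (-0.836 to -0.746). These describe cytosines that share libraries, loci and amplified strands, and they carry no p. The DP oxBS share itself had an r of 0.770 with the naive oxBS share and of -0.776 with the DP difference of other pairs, so the cytosines with a high DP difference were also those with a low DP oxBS share. The r of -0.776 is in part built in, since the DP difference holds the DP oxBS share with a minus sign. The relation with the naive oxBS share is thus not separate from the DP oxBS level.

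**Figure D2:**
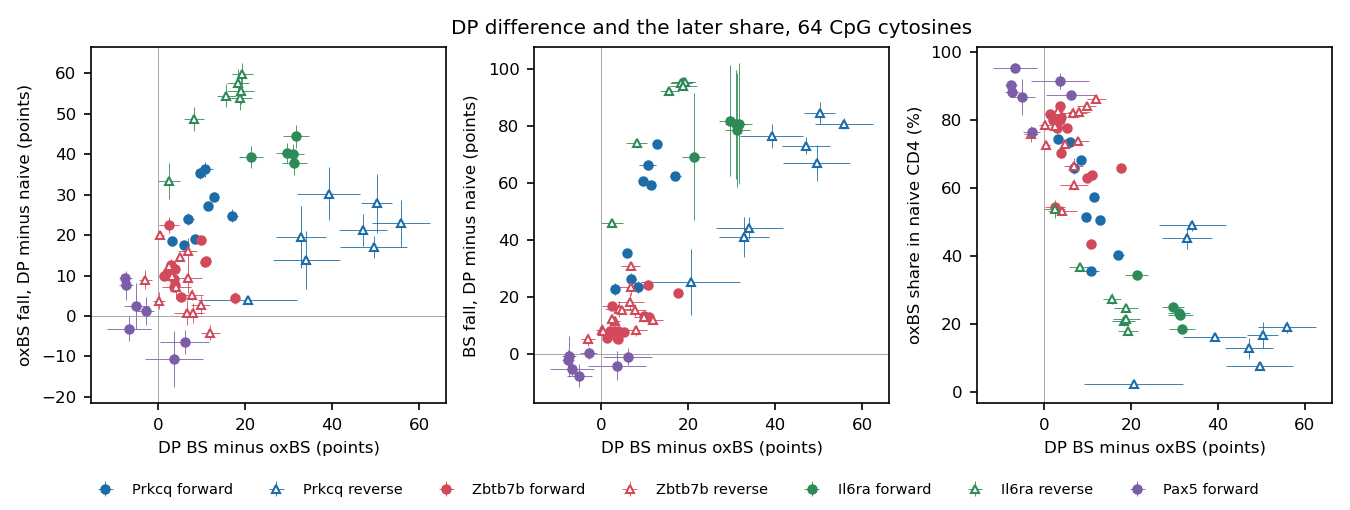
DP BS minus oxBS (points) of 64 CpG cytosines against the oxBS fall, the BS fall (both DP minus naive, points) and the naive oxBS share (%). Points are means of 3 libraries or pairs, filled for forward and open for reverse strands, with bars of 1 SD (falls: the root of the summed squared SDs of both stages). Prkcq reverse lies to the right with modest oxBS falls, and Il6ra reverse holds the largest oxBS and BS falls.

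Within loci the relation with the oxBS fall did not keep its direction. After the mean of each locus was subtracted, r was -0.158 with the oxBS fall (-0.253 to -0.0178), 0.553 with the BS fall (0.359 to 0.688) and -0.663 with the naive oxBS share (-0.733 to -0.596). When the mean of each strand of a locus was subtracted instead, a step chosen after the data had been seen, r was 0.205 with the oxBS fall (0.149 to 0.282), 0.711 with the BS fall and -0.364 with the naive oxBS share. The sign of the within-locus relation with the oxBS fall thus turned with how strands were treated. Without 1 cytosine, Prkcq 11124530, the value of 0.205 was 0.0689 and that of -0.364 was -0.547.

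By locus, these within-strand values differed in sign. For the oxBS fall r was 0.838 at Il6ra (n = 12), 0.563 at Prkcq (n = 17) and -0.320 at Zbtb7b (n = 28). For the naive oxBS share they were -0.965, -0.312 and -0.242, and at Zbtb7b the forward strand had -0.543 and the reverse strand 0.193. Without Prkcq 11124530 the Prkcq values were 0.319 with the oxBS fall and -0.752 with the naive oxBS share. The Il6ra value of 0.838 was 0.651 without Il6ra 89679072. At Pax5, where no difference above 0 was measured in the mean, r was -0.668 with the oxBS fall over 7 cytosines.

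On the reverse strand of Il6ra the 2 cytosines nearest the locus start differed from the 5 that followed. Il6ra 89679072, 33 bases from the start, read 89.4%, 88.8% and 91.1% in DP BS and 85.4%, 85.0% and 91.5% in DP oxBS, a difference of 2.43 ± 2.51 points. In naive cells it still read 43.02%, 43.6% and 44.5% in BS and 56.9%, 51.7% and 53.3% in oxBS, the highest mean naive shares of the locus. Its groups did not overlap between stages in either assay.

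Il6ra 89679187, 148 bases from the start, was the other extreme. The DP BS libraries read 96.8%, 97.0% and 97.0% there and the DP oxBS libraries 76.8%, 75.7% and 80.3%, a difference of 19.3 ± 2.39 points. In naive cells it read 1.54%, 1.31% and 1.70% in BS and 19.2%, 16.9% and 17.5% in oxBS. Its oxBS fall was 59.7 points and its BS fall 95.4 (limma log2 odds -4.00 ± 0.13 and -11.00 ± 0.13 SE, adjusted p = 1.7e-09 and 1.1e-13), and its Bayes factor, 27480, was the highest of the 64. The model behind that factor cannot place oxBS above BS, as the naive libraries read here. Over the 7 cytosines of this strand r with the oxBS fall was 0.940, and over the 5 without the pair near the start it was 0.473.

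The E-box CpG of Il6ra gave the same picture as its neighbours. Its reverse cytosine, Il6ra 89679174, read 96.7%, 96.4% and 97.3% in the DP BS libraries, 77.2%, 76.2% and 81.9% in the DP oxBS libraries, 1.80%, 1.28% and 1.96% in naive BS, and 22.8%, 19.4% and 20.7% in naive oxBS. Its forward cytosine, Il6ra 89679173, read 58.9%, 58.6% and 63.6% in DP oxBS and 22.9%, 22.6% and 22.3% in naive oxBS. These groups lie far apart, yet limma gave an adjusted p of 0.068 there, in a fit whose spread is shared with naive BS library 1. That library read 36.1% at this cytosine, where libraries 2 and 3 read 1.40% and 1.59%.

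On the forward strand of Il6ra the 5 cytosines had DP differences of 21.3 to 31.7 points and oxBS falls of 37.8 to 44.4. Il6ra 89679162 had the lowest DP difference and, at 34.4%, the highest naive oxBS share of the strand. The BS fall there was 69.4 to 82.0 points with naive BS library 1 and 82.3 to 93.3 with libraries 2 and 3 alone. The part of the low depth of library 1 in its higher share was not tested.

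Prkcq varied sharply between neighbouring cytosines. On the deeply read forward strand the BS falls ranged from 23.02 to 73.8 points and the oxBS falls from 17.7 to 36.3, and r of the DP difference was 0.473 with the oxBS fall, 0.779 with the BS fall and -0.808 with the naive oxBS share (n = 9). Prkcq 11124498 had the largest oxBS fall. It read 81.6%, 83.1% and 82.6% in the DP BS libraries, 70.6%, 70.6% and 73.9% in the DP oxBS libraries, 16.1%, 15.8% and 15.5% in naive BS, and 35.4%, 35.7% and 35.2% in naive oxBS. Its oxBS share fell by 36.3 points (adjusted p = 1.7e-09, limma) and its DP difference was 10.7 ± 1.88 points.

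The lowest DP difference of that strand belonged to a cytosine that stayed largely modified. Prkcq 11124523 read 96.0%, 96.0% and 96.1% in DP BS and 92.1%, 92.6% and 93.9% in DP oxBS, a difference of 3.17 ± 0.851 points. In naive cells it kept 75.3%, 71.4% and 72.4% in BS and 75.2%, 74.6% and 73.4% in oxBS. Prkcq 11124546, 23 bases away, had a DP difference of 12.9 ± 0.9001 points and fell from 92.9%, 93.0% and 93.1% to 19.6%, 19.0% and 18.9% in BS, the largest BS fall of the ranked cytosines of the locus. Its oxBS share fell from 79.4%, 79.6% and 81.2% to 51.1%, 50.7% and 50.1%. Prkcq 11124559, with the highest DP difference of the strand at 17.1 ± 1.20 points, fell by 24.8 points in oxBS and 62.5 in BS.

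The reverse strand of Prkcq had larger DP differences, from 20.6 to 55.8 points. The partner of Prkcq 11124534, at 11124535, read 96.3%, 98.1% and 98.6% in DP BS (26 of 27, 53 of 54 and 73 of 74 reads) and 48.1%, 37.4% and 40.2% in DP oxBS. Its difference of 55.8 ± 6.68 points was the highest of the 64 cytosines. In naive cells it read 16.6%, 15.4% and 18.3% in BS and 17.9%, 21.1% and 17.96% in oxBS, so that its oxBS fall of 22.9 points was smaller than the 35.2 of its forward partner. The 95% Wilson interval of the shallowest DP BS library, 81.7% to 99.3%, does not reach the DP oxBS values. Over the 8 cytosines r was 0.649 with the oxBS fall and 0.268 without Prkcq 11124530, which read only 26.8% ± 11.5 in DP BS.

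**Figure D3:**
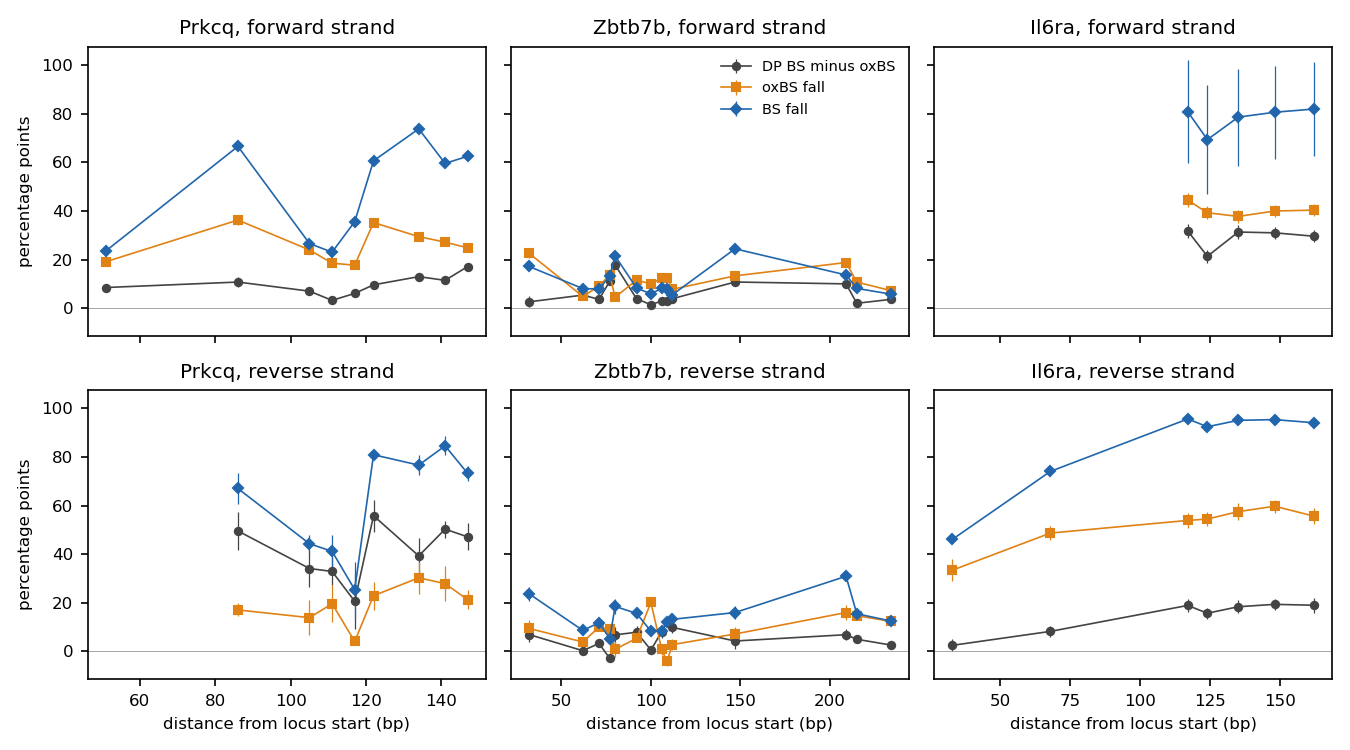
DP BS minus oxBS, oxBS fall and BS fall (percentage points) along the 3 loci read on both strands, by distance from the locus start (bp). Points are means over 3 libraries or pairs and bars are 1 SD (falls: the root of the summed squared SDs of both stages). On the reverse strand of Il6ra the measures rise together, and at Zbtb7b the oxBS fall and the DP difference do not.

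At Zbtb7b the cytosine with the highest DP difference barely fell in oxBS. Zbtb7b 89184824 read 88.0%, 88.1% and 89.0% in DP BS and 70.6%, 69.2% and 71.9% in DP oxBS, a difference of 17.8 ± 0.999 points. In naive cells BS read 66.9%, 65.6% and 68.1% and oxBS 65.5%, 66.5% and 66.1%. Its oxBS share thus fell by 4.49 points (adjusted p = 0.0029, limma) and its BS share by 21.5, and it was the only cytosine of the locus with a Bayes factor above 1, at 1.57. Without it, r with the oxBS fall on the forward strand was 0.257 in place of -0.121.

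The opposite case was Zbtb7b 89184776, with the largest oxBS fall of the locus and a small DP difference. It read 79.1%, 79.1% and 80.1% in the DP BS libraries, 79.1%, 75.9% and 75.5% in the DP oxBS libraries, and 53.9%, 54.5% and 54.4% in naive oxBS. The difference was 2.59 ± 2.34 points and the oxBS fall 22.5 points (adjusted p = 4.4e-08, limma). On the reverse strand, Zbtb7b 89184854 had a DP difference of 12.01 ± 2.15 points and an oxBS share that rose by 4.15 points, from 83.6%, 80.3% and 82.7% to 87.3%, 86.1% and 85.7% (adjusted p = 0.0043, limma). Zbtb7b 89184845, with a DP difference of 0.535 ± 0.768 points, fell by 20.1 points in oxBS. Zbtb7b 89184822 had a DP difference of -2.92 ± 1.57 points and falls of 8.996 points in oxBS and 5.23 in BS.

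Zbtb7b 89184954 had the largest BS fall of the locus. It read 90.5%, 88.3% and 88.9% in DP BS and 59.0%, 57.3% and 58.7% in naive BS, a fall of 30.9 points, with a DP difference of 6.82 ± 2.24 points. Its forward partner, Zbtb7b 89184953, fell by 13.6 points in BS and by 18.8 in oxBS. The naive BS share exceeded the naive oxBS share by 15.1 points at the forward cytosine and differed from it by -8.12 points at the reverse one.

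Pax5 moved by less than the other loci, and its assays did not move alike. The mean BS share was higher in naive cells at 6 of its 7 cytosines, of which 2 passed limma's threshold. Counting only cytosines that passed that threshold, the oxBS share fell at 2 and rose at 3. Pax5 44628832 read 100%, 99.5% and 100% in DP oxBS and 91.1%, 89.8% and 90.6% in naive oxBS, a fall of 9.35 points (adjusted p = 1.5e-06, limma), while its BS share moved from 92.6%, 93.3% and 91.0% to 90.6%, 96.1% and 95.6% (adjusted p = 0.13). Its DP BS share lay below its DP oxBS share in all 3 pairs. Pax5 44628684, with the highest DP difference, had pairs of -0.140, 7.82 and 10.6 points and an oxBS share that was 6.48 points higher in naive cells. Pax5 44628643 had an oxBS fall of 1.26 points and a BS fall of 0.483 (adjusted p = 0.56 and 0.80, limma), and its groups overlapped.

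The opposite strands of a CpG sit in the same cells, which allows a comparison within a CpG. At Prkcq the reverse cytosine had the higher DP difference at 8 of 8 CpGs, by a median of 29.9 points. There the reverse BS fall was larger at 7 of 8, and the reverse oxBS fall was larger at 3 of 8, though as a share of the DP value it was larger at 7 of 8. At Il6ra the forward cytosine had the higher DP difference at 5 of 5 CpGs, by a median of 11.7 points, and the smaller oxBS fall at 5 of 5, by a median of 15.3. The forward BS fall at Il6ra was also smaller at 5 of 5, and it stayed so with naive BS libraries 2 and 3 alone.

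At Zbtb7b the forward cytosine had the higher DP difference at 8 of 14 CpGs, and the strand with the higher DP difference had the larger oxBS fall at 6 of 14. Over all 27 CpGs the strand with the higher DP difference had the larger oxBS fall at 9 and the larger BS fall at 16. Between the strands, over 27 CpGs of loci with different means, r was 0.858 for the oxBS fall, 0.969 for the BS fall and 0.208 for the DP difference. Within Prkcq, Zbtb7b and Il6ra it was 0.477, 0.240 and -0.514 for the oxBS fall. For the DP difference it was 0.589, -0.136 and 0.943 there, over 8, 14 and 5 CpGs. Each strand of a locus has its own primers and depth, and their part in the strand differences was not tested.

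**Figure D4:**
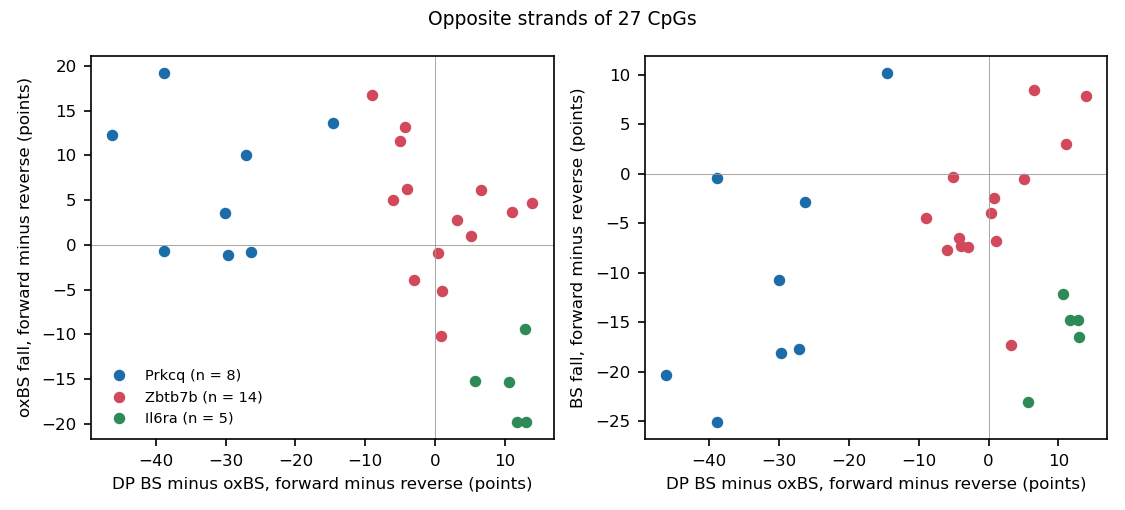
Forward minus reverse strand for 27 CpGs: the difference in DP BS minus oxBS (points) against the difference in the oxBS fall and in the BS fall (points). Each point is 1 CpG, from means of 3 libraries; all Il6ra CpGs lie at lower right, where the strand with more BS minus oxBS fell less.

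In naive CD4 cells the oxBS share was often above the BS share, the opposite of what 5hmC gives. The mean naive difference was below 0 at 37 of 64 cytosines, and all naive BS libraries lay below all naive oxBS libraries at 23 (35.9%), 9 in Prkcq, 6 in Zbtb7b, 7 in Il6ra and 1 in Pax5. The 7 of Il6ra are its reverse cytosines. At the 5 forward ones naive BS library 1 read 35.6% to 51.4% from its 72 or 73 reads, while pairs 2 and 3 gave differences of -23.2 to -17.2 points. At Prkcq 11124546 naive BS read 19.6%, 19.0% and 18.9% against 51.1%, 50.7% and 50.1% in naive oxBS, a difference of -31.4 points. The reverse strand of Il6ra had a naive difference of -18.3 ± 1.65 points and the forward strand of Prkcq -12.6 ± 0.831 (SD, n = 3). In DP cells the same strands had differences of 14.5 and 9.60 points.

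This bears on the size of each fall and on the reading of the DP difference as 5hmC. Whether the DP differences hold 5hmC alone was not tested. Where naive oxBS reads above naive BS, the BS fall exceeds the oxBS fall by more than the DP difference. The DP 5hmC control read 0.647% to 0.846% in oxBS libraries and the naive one 1.04% to 1.30%. The naive BS libraries read 5.51% to 6.39% at that control, above the naive oxBS libraries as their labels have it, and whether the assay labels of the naive libraries hold was not tested further. The numbers of BS and oxBS libraries may also not mark the same DNA, since only BS library 2 and oxBS library 1 of each stage hold chromosome 6 intervals. With BS library 2 set against oxBS library 1, and BS library 3 against the mean of oxBS libraries 2 and 3, the change of BS minus oxBS from DP to naive was -17.4 points, against -16.0 as numbered.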

How the data were processed

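The 12 libraries are targeted BS-seq and oxBS-seq of DP thymocytes and naive CD4 T cells, 3 of each assay and stage, grouped and numbered by their labels. Per the labels and the study's methods, the authors amplified chosen regions, aligned read pairs with Bismark 0.7.12 and Bowtie2 to mm9 with lambda, and kept cytosines with at least 10 reads. The deposited files hold, per cytosine, counts of unconverted and of converted reads and a percent. The deposited percent was recomputed from the counts, so shares are not normalized between libraries. PCR can favor converted or unconverted templates, and reads hold no molecular identifiers.

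Positions were matched to NCBIM37 and GENCODE vM1, and cytosines less than 1000 bp apart formed a locus. A library's share is the mean over its cytosines. Stages were compared by two-sided exact permutation over 20 arrangements, and cytosines by limma 3.58.1 (R 4.3.3) on log2 of (unconverted + 0.5) over (converted + 0.5) in 4 groups, with Benjamini-Hochberg adjustment over 64 cytosines. Bayes factors came from the study's hierarchical model, solved by numerical integration with the oxidation efficiency set to 0.9. Both were tested on simulated data. Relations over cytosines are Pearson's r, without p. Named cytosines are, per locus, those with the 3 largest oxBS and BS falls, the 2 highest and the lowest DP differences, their opposite-strand partners and any CpG in CACGTG, ranked where each of the 12 libraries had at least 100 reads. Where fewer than 3 reached that, all were ranked. Others that a value turns on were named after their values were seen. The members and lists were chosen with earlier results of these data known. Alternatives were another read minimum, pooling, single strands, libraries or loci left out, corrected shares, other priors and tests. CD4 SP libraries and intervals not covered in all 12 libraries were left out.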

Additional observations from a re-analysis of the deposited data

Results flagged for a closer look

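Intervals outside the comparison also held CpG cytosines with reads, and they are given because the comparison did not use them. At the 5 CpG cytosines of a Gata3 interval (chr2:9781277-9781523), the gene of a factor of CD4 lineage and helper T cells, DP BS minus oxBS was 5.28 ± 0.477 points (SD, n = 3 pairs). The unconverted share of the non-CpG cytosines of the interval was 0.183% to 0.288% in the 6 DP libraries. The BS share there was 96.3% ± 0.127 in DP and 91.1% ± 0.833 in naive CD4 cells, and naive oxBS was not analysed there.

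On chromosome 6 only single libraries cover the intervals, so no test was made and values are set side by side. At 24 CpG cytosines of chr6:70674813-70675065 naive oxBS library 1 read 94.1% (26 to 83 reads), naive BS library 2 66.1% and DP BS library 2 89.7%. At 3 CpG cytosines of chr6:70693891-70694090 naive oxBS library 1 read 89.4% (226 or 227 reads), naive BS library 2 3.39%, DP oxBS library 1 60.3% (22 or 23 reads) and DP BS library 2 38.4%. The single oxBS library thus read above the single BS library in both stages there, and the cause was not tested. DP BS library 2 read 4.67% at the non-CpG cytosines of this interval. At chr6:70685563-70685851 (10 to 53 reads) DP oxBS library 1 read 23.2% over 2 CpG cytosines and DP BS library 2 27.9% over 4. These means cover unlike sets of cytosines, so no order is drawn from them. Naive oxBS library 1 read 87.3% there and naive BS library 2 12.3%, over 2 CpG cytosines each. Non-CpG cytosines there read 8.71% in DP BS library 2 (over 121) and 12.8% in naive BS library 2 (over 47), again unlike sets.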

How the results depend on the processing

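The changes of the oxBS share, the BS share and BS minus oxBS over all cytosines kept their direction under every alternative run, and so did the counts of cytosines called by limma, within 1.5 times. Same-numbered DP and naive libraries had deviations correlated at 0.166 to 0.194 in BS and at -0.385 to -0.181 in oxBS. Between different numbers r was -0.239 to 0.141 in BS (-0.0757 on average) and -0.378 to 0.518 in oxBS. A pairing by number was not tested. Blocked by replicate number, the exact p of the changes was 0.25, the smallest that 3 pairs allow, and limma called 58 cytosines in oxBS and 59 in BS, against 59 and 59 without it. The Bayes factor call of 25 cytosines was 60 by Fisher's exact test on pooled oxBS reads, which takes libraries as one. At Zbtb7b the change of BS minus oxBS, -3.17 points, was 0.255 on the forward strand alone, and the same with at least 1000 reads, which leaves that strand only. With DP BS libraries 2 and 3 as 1 sample the BS change was -35.0 points, and with naive BS library 1 at Il6ra forward replaced by the mean of libraries 2 and 3, an alternative chosen after seeing the data, it was -36.0.

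The relations moved most. With the oxBS fall, r of 0.430 was 0.568 by Spearman's rho, 0.595 with at least 100 reads, 0.654 with 1 value per CpG, 0.753 and 0.221 on the forward and reverse strand alone, 0.658 without Prkcq, 0.312 without Zbtb7b, 0.355 without Pax5, 0.705 with the fall as a share of the DP value and 0.653 without the reverse strand of Prkcq (chosen after seeing the data). Within loci, -0.158 was -0.270 by rho, -0.416 on log2 odds and -0.266 without Prkcq, and it turned to 0.182 with at least 100 reads, 0.267 with 1 value per CpG, 0.390 on the reverse strand alone, 0.484 as a share of the DP value and 0.205 with strand means subtracted.

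With the BS fall, 0.723 was 0.815 by rho, 0.848 with 1 value per CpG, 0.848 and 0.623 by strand, 0.795 on log2 odds, 0.802, 0.653 and 0.805 without Prkcq, Zbtb7b and Il6ra, and 0.790 without the reverse strand of Prkcq. Within loci, 0.553 was 0.346 by rho, 0.805 with 1 value per CpG, 0.828 on the reverse strand, 0.384 without Prkcq, 0.412 without its reverse strand and 0.711 with strand means subtracted. With the naive oxBS share, -0.803 was -0.714 with at least 100 reads, -0.848 with 1 value per CpG, -0.887 and -0.733 by strand and -0.732 on log2 odds. Within loci, -0.663 was -0.540 by rho, -0.514 with at least 100 reads, -0.536 and -0.256 by strand, -0.306 on log2 odds, -0.399 and -0.747 without Prkcq and Zbtb7b, -0.442 without the reverse strand of Prkcq and -0.364 with strand means subtracted. Over all cytosines and within loci these 2 relations kept their sign in the alternatives given here. In single loci they did not: with the BS fall, 0.361 at Il6ra was -0.237 without Il6ra 89679072, and with the naive oxBS share r was 0.193 on the reverse strand of Zbtb7b. The causes of the shifts were not tested. Few reads limit DP BS on the reverse strand of Prkcq (26 to 77), Pax5 (44 to 1535) and naive BS library 1 on the forward strand of Il6ra (72 or 73).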

Other observations

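The base before the CpG, which the choice of cytosines did not use, divided the cytosines unevenly. Over all loci the 13 cytosines preceded by A had a median DP difference of 17.8 points and a median oxBS fall of 33.4, and the 11 preceded by T had 3.58 and 10.7. Of the 13, 6 lie in Il6ra and 3 in Prkcq. Within Zbtb7b the 2 cytosines preceded by A had a median oxBS fall of 5.80 points against 10.7 for the 7 preceded by T, the opposite order to the pooled oxBS falls, while their median DP differences of 11.003 and 3.58 points kept the pooled order.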
